A study of Homo sapiens with 3 samples.

Results

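The genes described here are 48 members of the p53 pathway, the BCL2 family and the caspase system, read in primitive neural progenitor cells (pNPCs), a self-renewing early neural stage. The members were taken by symbol from a list, and each of the 48 symbols occurred once among the 62754 genes of each deposited table. The pNPCs carried the wild-type (WT) label, had been derived from H1, an established human embryonic stem cell line, and make up a single group of 3 replicates. All 3 were kept in medium with FGF2 at 20 ng/ml, the GSK3 inhibitor CHIR99021 at 3 µM, human LIF at 10 ng/ml, the TGF-beta receptor inhibitor SB431542 at 2 µM and the ROCK inhibitor Y-27632 at 10 µM, an agent widely used to keep dissociated stem cells alive. The labels name no treated or mutant group, so every comparison below is among genes or among these 3 libraries. Nothing in the labels tells separate cultures from repeat libraries of a culture, so a p-value here speaks of differences among these 3 libraries, possibly technical ones.

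The transcription factor p53 is held at a low level by the ubiquitin ligase MDM2 and its relative MDM4, and accumulates after DNA damage or other stress. It then switches on genes that stop the cell cycle, repair DNA or start cell death. In the mitochondrial route to death, BH3-only proteins oppose the anti-death BCL2 proteins and set BAX and BAK1 free to open the outer membrane. Cytochrome c then joins APAF1 to activate caspase 9, while the inhibitor of apoptosis proteins (IAPs) hold caspases back. Human embryonic stem cells are known for a low threshold to this form of death.

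Sequencing depth was 34658454, 38400092 and 30038114 expected counts for replicates 1, 2 and 3. Replicate 1 stood apart: the chi-square per degree of freedom over genes was 82.4 between replicates 1 and 2, 82.5 between replicates 1 and 3, and 19.4 between replicates 2 and 3. It also gave fewer reads to long transcripts. Among protein-coding genes with an effective length under 1000 bases the median log2 CPM, a level scaled for library size alone, in replicate 1 lay 0.30 above the mean of the other libraries, and at 8000 bases or more it lay at -0.77. Of 8 neural progenitor markers, 8 had a TPM of at least 1 in all 3 libraries, with VIM, NES and FABP7 highest in mean level. SOX1 was the lowest of them, at 8.16, 3.28 and 5.19 TPM. Of 6 pluripotency markers, 1 reached 1 TPM in all 3 libraries, DPPA4 at 18.6, 21.0 and 26.4 TPM. PAX6, a defining marker of many neural progenitors that was named after its values were seen, had only 0.13, 0.81 and 0.38 TPM. None of the 6 blood and microglia markers reached 1 TPM in all 3 libraries (summed level 1.46, 1.78 and 0.59 TPM), and TYROBP, C1QA and HBA1 had 0 counts. All 6 mesenchyme markers did, with a summed level of 613, 1293 and 898 TPM in replicates 1, 2 and 3, highest in replicate 2. All 6 neuron markers did too, summing to 572, 403 and 392 TPM, most of it TUBB3 at 478, 324 and 323 TPM. STMN2 and ELAVL4 were called for spread by the edgeR test described below (adjusted p = 0.00388 and 0.00548) and were highest in replicate 1. Among glia markers, SOX10 had 29.1, 22.4 and 15.2 TPM and S100B 18.3, 21.1 and 9.93 TPM, while GFAP and AQP4 stayed under 1 TPM in each library. HES1 among the progenitor markers and COL1A1 among those of mesenchyme were called as well (edgeR adjusted p = 0.011 and 0.0106). Of 8 immediate early genes, which respond within minutes to stimulation or handling, 4 were called in edgeR, FOS, FOSB, JUN and EGR1, and the list summed to 161, 236 and 440.2 TPM. All 6 genes of the integrated stress response were detected, at 640, 694 and 773 TPM in sum. Most of that sum was ATF4, at 502, 546 and 581 TPM, while TRIB3, the lowest, had 4.94, 7.77 and 8.77 TPM. The part of such cells or responses in the values below was not tested.

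Most of the death and arrest machinery was present as RNA in these wild-type progenitors. TPM scales reads for both library size and transcript length, and genes at 1 TPM or more in all 3 libraries were counted as detected. By that measure 42 of the 48 members were detected, beside 62.2% of all protein-coding genes and 23.0% of all genes in the tables. In bulk RNA, fewer cells expressing a gene and less RNA per cell cannot be told apart. The highest members were the pore-forming gene BAX, the anti-death gene MCL1, the death receptor gene TNFRSF10B and the IAP gene BIRC5. The 6 members below detection were TP63, TP73, BCL2A1, HRK, CASP10 and BIRC3, all under 1 TPM in each library. In mean TPM, 9 members lay from 1 to 10, 24 from 10 to 50, 6 from 50 to 100 and 3 above 100.

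Levels of the members were about as steady between replicates as those of other genes. The median coefficient of variation of TPM was 13.2% over the 42 detected members, beside 13.7% over detected protein-coding genes. The coefficient was at most 10% for 14 members and above 25% for 4, namely MDM4, PMAIP1, BIRC6 and BIK. When the 48 members were ordered by mean TPM, the ranges of the 3 libraries did not overlap in 9 of the 47 neighbouring pairs. BAX lay above MCL1, MCL1 above TNFRSF10B and BIRC5 above DIABLO without overlap, while TNFRSF10B and BIRC5 overlapped.

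**Figure D1:**
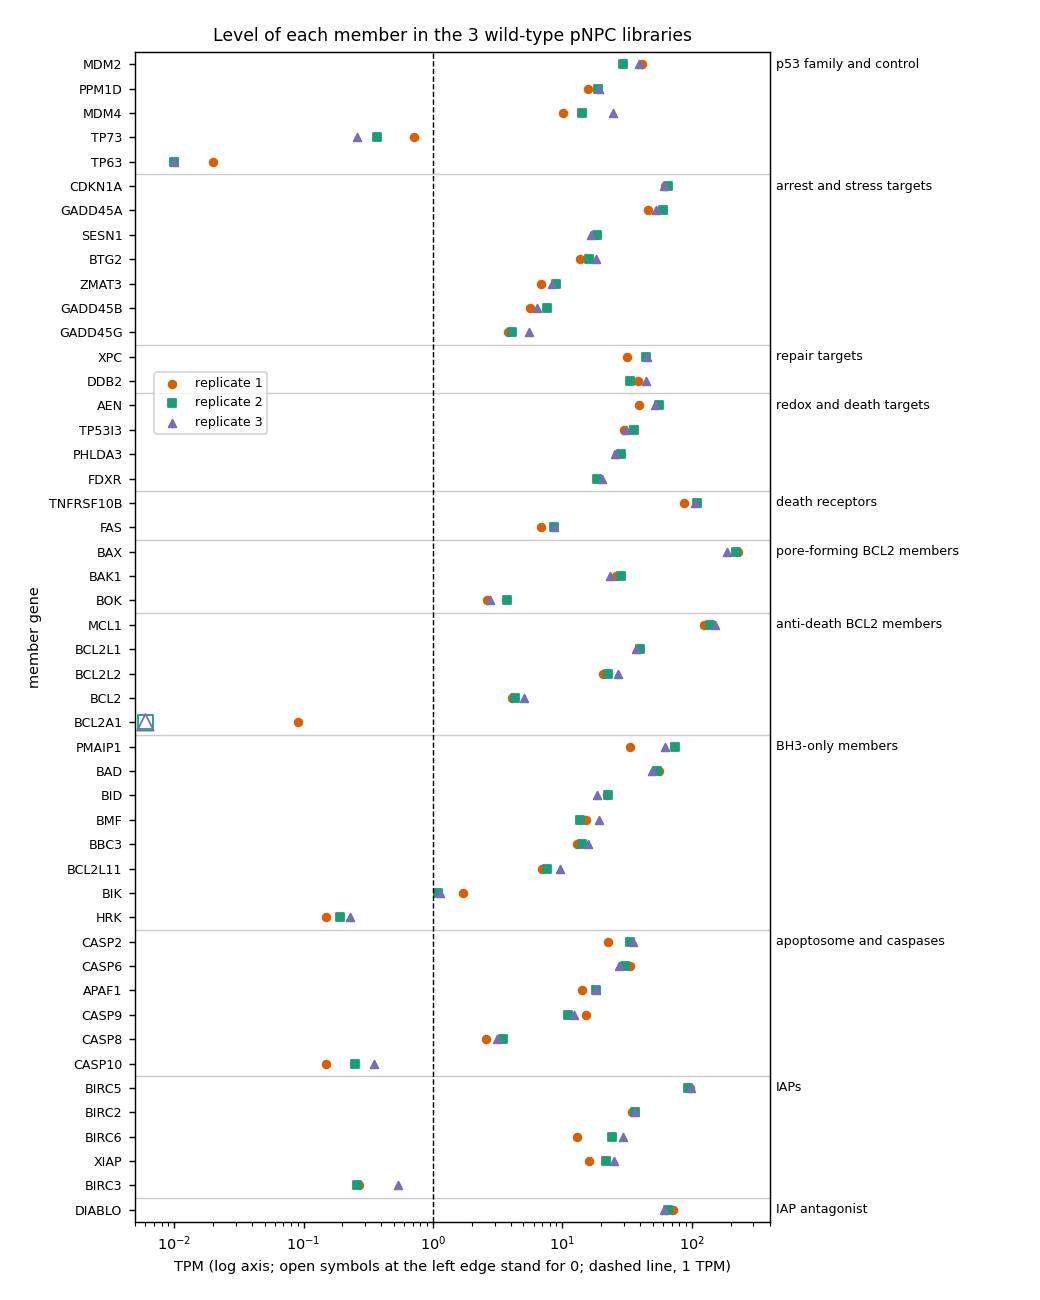
TPM of each of the 48 members in the 3 wild-type pNPC libraries on a log axis, by role and, within a role, by falling mean. Each point is 1 library, the dashed line marks 1 TPM, and open symbols stand for the 2 libraries in which BCL2A1 was listed at 0. BAX is the highest member at 188 to 228 TPM, and 6 members lie left of the line.

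The relatives of p53 were close to absent and its inhibitors were well expressed. TP63, a regulator of basal epithelium, had 1 count in each library (exact Poisson 95% interval 0.0253 to 5.57, counting error only). TP73, which has roles in neural development and in multiciliated cells, had 0.71, 0.37 and 0.26 TPM in replicates 1, 2 and 3. Its first value was the highest, on 72 counts (interval 56.3 to 90.7), against 39 and 25 counts in replicates 2 and 3. TP73 shares 9.36% of its exon bases in GENCODE release 29 with TP73-AS1, a gene on the opposite strand that stood at 36.5, 39.0 and 45.2 TPM, and the sources used here do not say whether counting used strand.

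MDM2, the ligase that marks p53 for breakdown and is itself a p53 target, had 41.6, 29.4 and 39.2 TPM. MDM4, which binds p53 and blocks its activity, had 10.2, 14.3 and 24.8 TPM. PPM1D, a phosphatase that switches the damage response off, had 15.7, 18.9 and 19.3 TPM. MDM2 was lowest in replicate 2, whereas MDM4 and PPM1D were lowest in replicate 1. For MDM2 the order depended on the scale: it stood at 79.1, 100.2 and 111.8 CPM in replicates 1, 2 and 3, lowest in replicate 1. TPM, unlike CPM, divides by an effective length. RSEM, the tool behind the tables, weighted the MDM2 isoforms to an effective length of 2595 bases in replicate 1, 5029 in replicate 2 and 4234 in replicate 3. The ratio of MDM2 to MDM4 in TPM was 4.10, 2.06 and 1.58, a mean log2 ratio of 1.25 ± 0.71 (SD, n = 3), and in CPM only 0.29 ± 0.29, with replicate 3 at -0.03. A processed pseudogene, AC025423.2, lies on the same strand within MDM2 exons (439 of 13284 exon bases) and was given 22.3, 30.4 and 30.6 TPM, so the division of reads between them makes the MDM2 level uncertain.

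All 7 targets of arrest and stress response were detected. CDKN1A, which encodes the cyclin-dependent kinase inhibitor p21, had 62.0, 65.5 and 61.5 TPM. It was among the steadiest members in TPM, with a coefficient of variation of 3.47%, and had 84.2, 78.8 and 73.2 CPM. GADD45A, a stress-response gene, had 46.0, 59.7 and 52.5 TPM. Its relatives were far lower, GADD45B at 5.67, 7.60 and 6.38 TPM and GADD45G at 3.80, 4.12 and 5.55 TPM, so that GADD45A exceeded both in every library. The antiproliferative gene BTG2 had 13.6, 16.1 and 18.2 TPM. SESN1, which restrains growth signalling through mTORC1, had 18.4, 18.4 and 16.6 TPM, and the RNA-binding protein gene ZMAT3 had 6.79, 8.97 and 8.33 TPM. Replicate 3 was not uniformly high or low in this group, being the highest for GADD45G and BTG2 and the lowest for CDKN1A and SESN1. The 8 immediate early genes read, a class to which BTG2 and GADD45B are often counted, had a summed level of 161, 236 and 440.2 TPM in replicates 1, 2 and 3. The part of such a response in the BTG2 values was not tested.

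The DNA repair targets were of like abundance. XPC, which recognises damaged DNA for nucleotide excision repair, had 31.5, 44.2 and 44.9 TPM, lowest in replicate 1. Of its exon bases, 23.8% overlap the antisense gene AC093495.1 (2.07, 2.25 and 3.65 TPM). A further gene on the opposite strand, LSM3, shares 6.63% of them and stood at 29.9, 26.8 and 21.3 TPM. DDB2, a sensor of ultraviolet lesions in the same repair route, had 38.2, 33.5 and 44.6 TPM, lowest in replicate 2. Their ranges overlapped. Among the remaining targets, the nuclease gene AEN had 38.8, 55.8 and 51.7 TPM, and TP53I3, a quinone oxidoreductase gene, had 30.2, 35.5 and 31.1 TPM. PHLDA3, whose product inhibits AKT, had 26.4, 28.2 and 25.6 TPM, and FDXR, a mitochondrial electron-transfer gene, had 19.4, 18.6 and 20.4 TPM. Of these 4 genes FDXR was the lowest in all 3 libraries and AEN the highest.

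Promoter sequence is shown for these targets because p53 acts by binding elements near the genes it switches on. RefSeq promoter windows (GRCh38.p14, 250 bases before to 50 after a start) were found for 40 of the 48 members. The p53 response element is a pair of decamers, and the decamer consensus is its own reverse complement, so that 1 search covers both strands. A pair of decamers with a spacer of at most 13 bases stood in 1 of 70 member windows, that of DDB2, and in 10 of all 35116 windows (0.0285%). At least 1 decamer stood in 8 member windows (11.4%), each of a different member, and in 6.63% of all windows. These are letter matches and no evidence of binding. The 150 bases around the DDB2 start are shown with the pair of decamers and its spacer in capitals, which run from base 6 to base 26 of the transcript.
DDB2 (chr11:47214854-47215003, plus strand): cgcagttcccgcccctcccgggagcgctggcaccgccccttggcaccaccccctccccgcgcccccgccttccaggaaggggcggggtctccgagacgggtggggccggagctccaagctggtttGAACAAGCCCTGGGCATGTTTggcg
The decamer matches of FDXR, AEN and SESN1 are shown with 30 bases to each side and the decamer in capitals, since these p53 targets carry it within 50 bases before a start.
FDXR (chr17:74872966-74873035, minus strand): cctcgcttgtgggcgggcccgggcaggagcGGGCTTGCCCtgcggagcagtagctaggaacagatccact
AEN (chr15:88621276-88621345, plus strand): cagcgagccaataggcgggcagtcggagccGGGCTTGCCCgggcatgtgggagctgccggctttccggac
SESN1 (chr6:109008998-109009067, minus strand): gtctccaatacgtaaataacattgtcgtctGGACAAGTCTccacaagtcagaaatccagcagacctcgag
The death genes FAS, BAK1, CASP8 and CASP9 carried a decamer farther from the start, between 64 and 188 bases before it. FAS and BAK1 are shown as the receptor and the pore-forming member among them.
FAS (chr10:88991279-88991348, plus strand): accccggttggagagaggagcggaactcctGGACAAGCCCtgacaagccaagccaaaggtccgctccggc
BAK1 (chr6:33580310-33580379, minus strand): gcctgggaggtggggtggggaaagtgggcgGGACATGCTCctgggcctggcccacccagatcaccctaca
FDXR and AEN held the same decamer letters. The 8 members with a match ranged in mean level from CASP8 at 3.07 TPM to AEN at 48.8 TPM, and CDKN1A, the highest of the arrest targets, had no match in its windows. Only exact matches from 250 bases before to 50 after a start were searched. Elements farther away or with other letters would be missed, so a member without a match may still carry an element.

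The receptors that start death from the cell surface differed widely. TNFRSF10B, a receptor for the ligand TRAIL, had 87.7, 109 and 106 TPM, which placed its mean at percentile 92.8 of protein-coding genes. FAS, the receptor for FAS ligand, had 6.83, 8.69 and 8.67 TPM, more than 10-fold lower in every library. Both were lowest in replicate 1. FAS shares 8.9% of its exon bases with ACTA2 on the opposite strand (17.21, 15.85 and 13.94 TPM), and whether counting used strand is not given. In the same receptor route, CASP8, the initiator caspase that death receptors recruit, had 2.56, 3.50 and 3.15 TPM, and its close relative CASP10 had 0.15, 0.25 and 0.35 TPM on 13, 21 and 17 counts. The adaptor FADD, which joins receptors to caspase 8, stood at 37.1, 33.1 and 29.6 TPM.

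Among the pore-forming members, BAX had 228, 221 and 188 TPM and took 88.0% ± 0.74 (SD, n = 3) of their summed TPM. BAK1, which can act in its place, had 26.2, 28.4 and 23.3 TPM. BOK, a relative that acts more independently of the other BCL2 proteins, had 2.63, 3.76 and 2.78 TPM. BAX exceeded BAK1 and BAK1 exceeded BOK in each library without overlap. Both BAX and BAK1 were lowest in replicate 3.

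The anti-death side was led by MCL1, a short-lived guardian of mitochondria, at 125, 138 and 150 TPM, which was 67.3% ± 1.27 of the summed TPM of its group (SD, n = 3). BCL2L1, which encodes BCL-XL, had 39.3, 39.9 and 36.9 TPM, and BCL2L2, which encodes BCL-W, had 20.6, 22.7 and 26.9 TPM. BCL2 itself had 4.09, 4.33 and 5.02 TPM, or 2.19% ± 0.09 of the group. BCL2A1, an anti-death gene known from blood cells, had 1 count in replicate 1 and none in the other libraries (exact Poisson upper limit 5.57 counts in replicate 1 and 3.69 in the others). The order MCL1, BCL2L1, BCL2L2, BCL2, BCL2A1 held in all 3 libraries. BCL2L2 shares 19.4% of its exon bases with the read-through gene BCL2L2-PABPN1 (3.35, 2.91 and 4.92 TPM), and the antisense gene ABALON, which overlaps 43.0% of the BCL2L1 exon bases, was listed at 0.30, 0.08 and 0.33 TPM.

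Of the 8 BH3-only members, the sensors of stress that engage the other BCL2 proteins, 7 were detected. BAD, which links growth factor signals to death, had 55.9, 54.0 and 49.6 TPM. PMAIP1, the p53 target that encodes NOXA and binds MCL1, had 33.2, 73.9 and 62.0 TPM. It was the member of this group that varied most among those above 10 TPM, with replicate 1 well below the others. BBC3, which encodes PUMA and is likewise a p53 target, had 12.9, 14.2 and 15.7 TPM. BID, which caspase 8 cleaves to pass the receptor signal to mitochondria, had 22.2, 22.6 and 18.5 TPM, and BMF, a sensor tied to the cytoskeleton, had 15.3, 13.6 and 19.1 TPM. BCL2L11, which encodes BIM, had 7.0, 7.57 and 9.66 TPM. Low levels were found for BIK at 1.72, 1.10 and 1.14 TPM on 32, 20 and 16 counts, and for HRK, a sensor known from neurons, at 0.15, 0.19 and 0.23 TPM. PMAIP1 exceeded BBC3 in each library. BAD shares 23.7% of its exon bases with GPR137 on the opposite strand (30.6, 26.3 and 25.2 TPM). BCL2L11 shares 10.9% with MIR4435-2HG, also on the opposite strand (5.91, 18.2 and 14.1 TPM).

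Downstream of mitochondria, APAF1, the scaffold of the apoptosome, had 14.3, 18.1 and 18.1 TPM, and CASP9, the caspase it activates, had 15.3, 11.01 and 12.3 TPM. Replicate 1 was lowest for APAF1 and highest for CASP9. CASP2, an initiator caspase linked to stress in dividing cells, had 22.5, 33.6 and 35.3 TPM, and the executioner CASP6 had 33.3, 30.7 and 27.2 TPM. Those 2 caspases were the highest of the 5 listed in every library, and their ranges overlapped.

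Of the 5 IAPs, 4 were detected. BIRC5, which encodes survivin and also serves chromosome segregation in mitosis, had 96.9, 93.8 and 98.7 TPM. It was the steadiest detected member in TPM, with a coefficient of variation of 2.58%. In CPM the ratio of the highest to the lowest library was 1.15 for BIRC5 and 1.05 for BIRC2. All 10 proliferation genes were detected too, at a summed level of 1566, 1712 and 1800 TPM. BIRC2, which encodes the ubiquitin ligase cIAP1, had 34.4, 36.6 and 36.2 TPM, while its neighbour and close relative BIRC3 had 0.27, 0.26 and 0.54 TPM on 28, 42 and 20 counts. XIAP, the direct inhibitor of caspases, had 16.1, 21.6 and 25.01 TPM. BIRC6, a very large ubiquitin ligase that also restrains caspases, had 12.9, 24.4 and 29.2 TPM. XIAP and BIRC6 were both lowest in replicate 1, and BIRC2 was nearly level. DIABLO, the mitochondrial protein that displaces IAPs, had 72.1, 65.6 and 61.1 TPM, above XIAP in every library. On the same strand, 29.6% of its exon bases are shared with a second gene model that GENCODE also names DIABLO, listed at 0, 0 and 0.18 TPM, and 16.8% with AC048338.1, listed at 0 in all libraries.

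In summed TPM the roles of the BCL2 family lay closer to each other than the IAPs did to APAF1 with the caspases, or DIABLO to XIAP. Anti-death members summed to 189, 205 and 219 TPM and pore-forming members to 256, 253 and 214 TPM, a log2 ratio of -0.44, -0.31 and 0.03 in replicates 1, 2 and 3 with a mean of -0.24 ± 0.24 (SD, n = 3). The sign was thus not the same in all libraries. BH3-only members summed to 148, 187 and 176 TPM, and their log2 ratio to the anti-death members was -0.35, -0.13 and -0.32, below 0 in 3 of 3. The IAPs summed to 161, 177 and 190 TPM and APAF1 with the caspases to 88.1, 97.1 and 96.3 TPM, a log2 ratio of 0.90 ± 0.07 (SD, n = 3). In TPM that ratio rested on BIRC5, which also serves mitosis. BIRC5 took 60.3, 53.1 and 52.0% of the IAP sum in replicates 1, 2 and 3. The remaining IAPs alone summed to less than APAF1 with the caspases in every library in TPM. In CPM they summed to more in every library. The log2 ratio of DIABLO to XIAP was 2.16, 1.60 and 1.29. Without length scaling the anti-death side exceeded the pore-forming side, at 1.93 ± 0.25 in CPM, and the mean ratio of DIABLO to XIAP turned to -0.17 ± 0.44. These ratios are descriptions with no p-value, since the genes were chosen with earlier results of these data known. An exact permutation test by sign flips could not go below 0.25 with 3 libraries (two-sided).

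**Figure D2:**
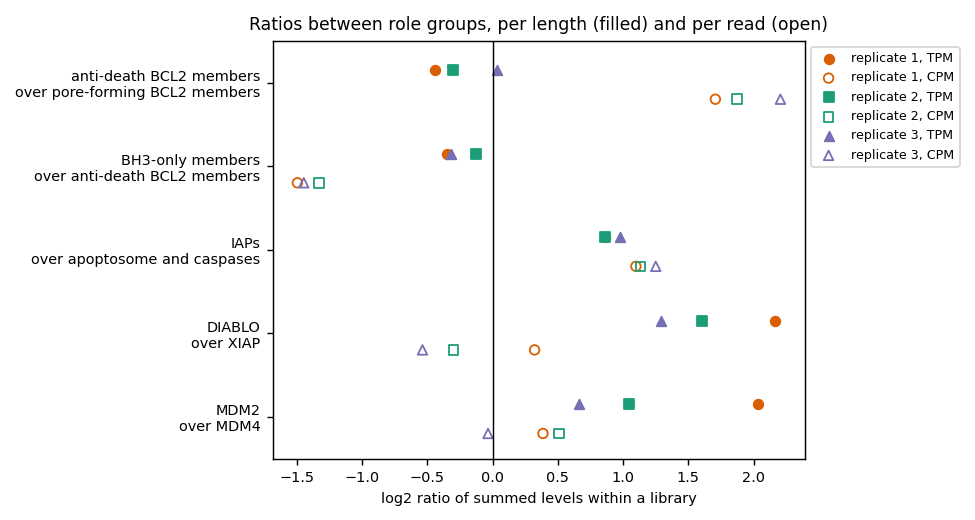
Log2 ratio of summed levels between role groups, or between 2 single genes, within each library, from TPM (filled) and from CPM without length scaling (open). The ratio of anti-death to pore-forming members lies at -0.44 to 0.03 in TPM and above 1.70 in CPM, and the ratio of IAPs to APAF1 with the caspases lies above 0 on both scales.

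A single member varied between the libraries beyond genes of its abundance. Spread was tested for all genes in edgeR by the residual deviance of an intercept-only negative binomial fit at the trended dispersion, with Benjamini-Hochberg adjustment over all genes and a threshold of 0.05. It was called for 1.55% of the 17046 genes tested, and for 1 of the 46 members tested. TP63 and BCL2A1 had too few counts to be tested. The called member was BIRC6 (ENSG00000115760.16, chromosome 2, 32357023 to 32618878, GRCh38), with 1320, 5211 and 4755 expected counts, or 38.1, 135.7 and 158.3 CPM (edgeR adjusted p = 0.000121). The ratio of its highest to its lowest CPM was 4.16, and that of TPM 2.26, since its effective length was given as 4026 bases in replicate 1 and as 8215 and 8039 in replicates 2 and 3. Without replicate 1 its edgeR adjusted p was 1, and 0 of 46 members were called, with 2 at an unadjusted p under 0.05. With the trend on transcript length removed from each library, an alternative chosen after seeing the data, it was 0.000203.

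The replicate 1 value of BIRC6 stood -1.93 log2 CPM from the mean of replicates 2 and 3. PMAIP1 (ENSG00000141682.12, chromosome 18, 59899996 to 59904305) and MDM4 (ENSG00000198625.14, chromosome 1, 204516406 to 204558120) followed, at unadjusted p of 0.027 and 0.0391 and edgeR adjusted p of 0.463 and 0.579. PMAIP1 had 40.9, 82.3 and 68.2 CPM and lay at -0.86 in replicate 1. MDM4 had 60.5, 70.4 and 114 CPM and lay at -0.55 in replicate 1. These genes were named for their spread, so their place in that library is a description of the same values. The remaining 43 tested members had an unadjusted p above 0.05.

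**Figure D3:**
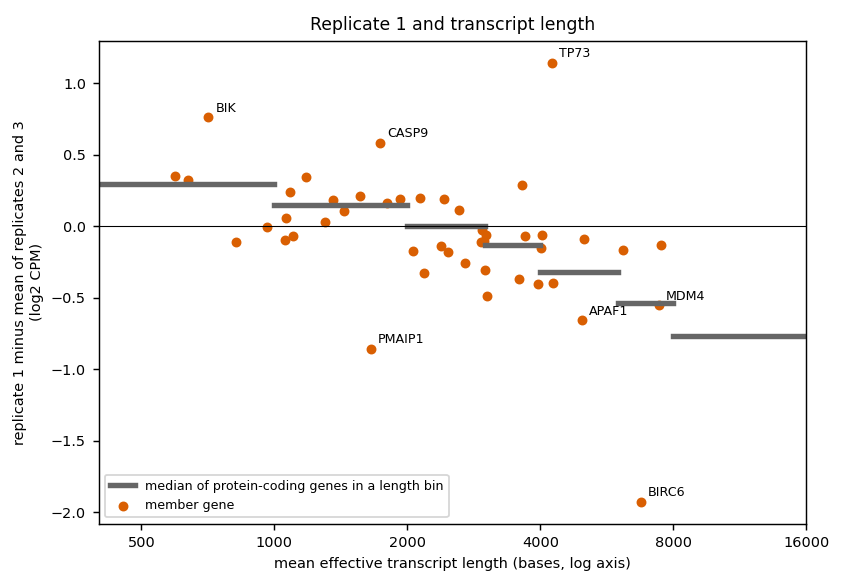
Replicate 1 minus the mean of replicates 2 and 3 in log2 CPM for each of the 46 tested members (points) against mean effective length on a log axis, with the median of protein-coding genes in each length bin (bars, the outer bins drawn to the edges). Bars fall from 0.30 to -0.77, and the points of BIRC6 and PMAIP1 lie at -1.93 and -0.86.

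Most long members lay low in replicate 1 and most short ones high, as did most other protein-coding genes of these lengths. Of the 16 tested members with an effective length of at least 3000 bases, 14 lay below 0 in replicate 1 in log2 CPM (87.5%, BIRC6 and MDM4 among them), beside 75.9% of the 5263 tested protein-coding genes of that length. The exceptions were TP73 and BMF. Of the 18 members under 2000 bases, 13 lay above 0 (72.2%), beside 74.3% of 5596 genes, and GADD45A, GADD45B, GADD45G, PMAIP1 and CASP6 did not. In TPM, 25 of 42 detected members were lowest in replicate 1 (59.5%), beside 57.2% of detected protein-coding genes. Replicate 2 was highest for 17 members (40.5%, beside 33.9%) and so was replicate 3 (40.5%, beside 41.0%). The median deviation of the members was -0.07, 0.05 and -0.01 log2 CPM in replicates 1, 2 and 3, beside -0.01, 0.00 and 0.01 over all tested genes. Among the 11 role groups, pore-forming members, for example, had a median of 0.19, 0.14 and -0.33, APAF1 with the caspases -0.27, 0.23 and 0.02, and BH3-only members 0.21, -0.14 and 0.09. These medians rest on 3, 6 and 8 tested genes, and the part of transcript length in them was not tested. The highest deviation of a tested member in replicate 1 was that of TP73 at 1.14, a gene below detection.

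**Figure D4:**
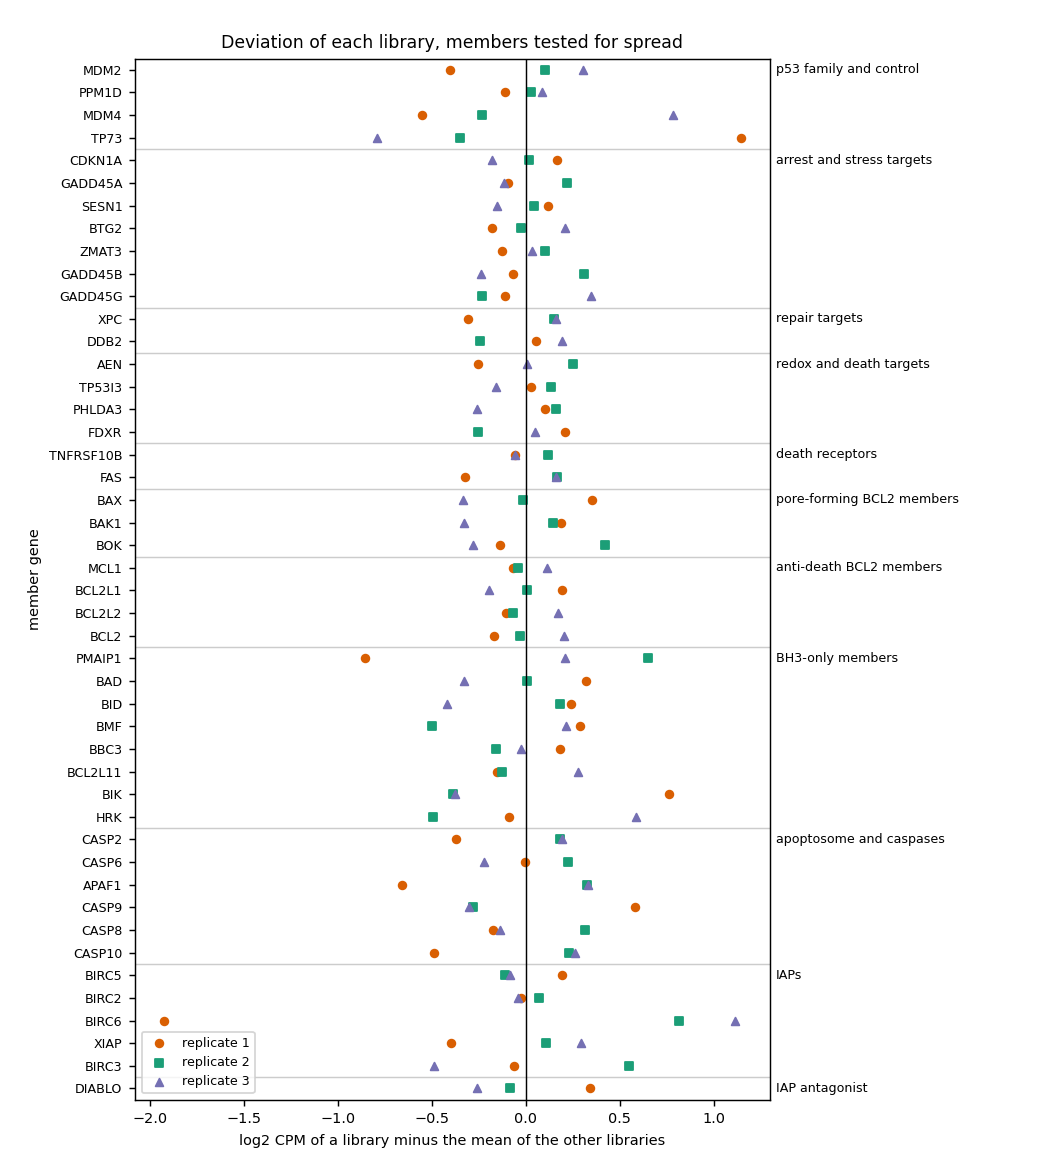
Log2 CPM of each library minus the mean of the other libraries for the 46 members tested for spread, by role. Each point is 1 library. BIRC6 lies at -1.93 in replicate 1, PMAIP1 at -0.86, and the points of BIRC2 all lie within 0.07 of 0.

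A further 52 genes of the pathway, from lists chosen with earlier results of these data known, were read beside the members. Of these, 41 were detected and 44 were tested for spread. The edgeR adjusted p fell under 0.05 for 0 of them, with 2 at an unadjusted p under 0.05, and DESeq2 dispersions gave 0 by either measure. Among 21 other p53 targets 19 were detected, led by the cyclin gene CCNG1 at 262, 201 and 202 TPM, by RPS27L at 203, 198 and 171 TPM, which has a close ribosomal relative, and by TRIAP1 at 57.3, 63.6 and 51.3 TPM. The lowest were TP53AIP1 at 0.12, 0.15 and 0.21 TPM and the second TRAIL receptor gene TNFRSF10A at 0.67, 2.18 and 1.65 TPM. TNFRSF10B exceeded TNFRSF10A in each library. Among 8 other BCL2 relatives 5 were detected, with BCL2L12 at 71.8, 70.4 and 66.4 TPM and the mitophagy receptors BNIP3L at 41.3, 45.8 and 55.2 TPM and BNIP3 at 53.4, 40.8 and 38.7 TPM highest. BCL2L10 and BCL2L14 were at most 0.20 TPM.

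The mitochondrial death factors were all detected, 5 of 5. CYCS, which encodes cytochrome c and has many processed copies in the genome, had 142, 143 and 125 TPM, AIFM1 had 61.5, 56.6 and 57.3 TPM and the protease gene HTRA2 had 22.6, 20.1 and 19.8 TPM. Of 6 genes around death receptors 5 were detected, with TNFRSF1A highest at 47.7, 58.9 and 49.8 TPM, and TRADD, its adaptor, at 1.21, 0.56 and 0.65 TPM. CFLAR, which blocks caspase 8 at the receptor, had 2.29, 4.27 and 4.21 TPM, a range that overlapped that of CASP8. Targets of caspase cleavage were abundant, PARP1 at 340.3, 390.1 and 363.5 TPM and LMNB1 at 237, 320.1 and 297 TPM. The inflammatory and skin caspases were not detected. CASP4 had 0.44, 0.46 and 1.40 TPM, and CASP5, CASP12 and CASP14 had 0 counts throughout. A count of 3 in the library with the highest floor would be 0.185, 0.179 and 0.0872 TPM for these genes. Of 3 other IAPs, NAIP, which has near-identical copies, had 6.97, 9.61 and 13.3 TPM, BIRC7 had 2.55, 1.5 and 1.64 TPM, and BIRC8 had 0 counts (floor 0.107 TPM).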

How the data were processed

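Polyadenylated RNA of 3 replicates of wild-type pNPCs was read as 1 group, as the titles give it. RSEM 1.3.1, STAR 2.7.11a, Trim Galore 0.6.10 and GRCh38 appear in the submitters' processing notes without role or order. Annotation release and strandedness: not given in the sources used here. According to their headers, the deposited tables hold RSEM expected counts, not normalized, TPM, which the authors scaled for effective length and to 1 sum per library, FPKM, and effective length. RSEM divides reads shared by several genes, so close copies and overlapping genes are uncertain.

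The members and lists were chosen with earlier results of these data known. All members could be named, and of each other list up to 3 genes of highest and 2 of lowest mean TPM. Overlapping genes were named after their values were seen. Expected counts were rounded for edgeR 4.0.16 (R 4.3.3), with TMM scaling, filterByExpr and the spread test against a chi-square with 2 degrees of freedom. The common biological coefficient of variation was 22.6%. Log2 CPM used a prior count of 2. The test was tested on simulated data. Gene types and exon overlaps came from GENCODE release 29 (GRCh38, 92.8% of identifiers matched), coordinates and promoters from RefSeq GRCh38.p14. Alternatives were TPM minima, FPKM, RLE size factors, no filter, a common dispersion, DESeq2 1.42.0 dispersions, CPM, medians and leaving out each replicate. Python 3.11.15, pandas 2.3.3, scipy 1.17.1 and matplotlib 3.10.9 were used. A glia marker of the lists is not reported here.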

Additional observations from a re-analysis of the deposited data

How the results depend on the processing

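The count of members detected was 42 and stayed within 1.5 times of it at other minima, in FPKM and without each replicate. The count of members called for spread was 1 under every alternative except without replicate 1, when it was 0 (0 to 1 over the replicates left out), and over all genes the 265 calls became 95 to 117 with a replicate left out, where fewer samples remain. Of 368 repeats of the spread test over tested members, 367 kept their side of the threshold and the exception was BIRC6 without replicate 1. Its adjusted p otherwise ranged from 2.49e-05 to 0.00874. Ratios of role groups depended on the scale. In summed CPM they were 1.93 for anti-death over pore-forming members, -1.42 for BH3-only over anti-death members, 1.16 for IAPs over APAF1 with the caspases, -0.17 for DIABLO over XIAP and 0.29 for MDM2 over MDM4. As medians of log2(TPM + 1) the ratio of BH3-only to anti-death members was -0.61 and that of IAPs to APAF1 with the caspases 0.60, and with a pseudocount of 0.1 they were -0.64 and 0.62. The members' median deviation moved to -0.17 in replicate 1 and 0.11 in replicate 3 on the log2(TPM + 1) scale. The order of genes in TPM rests on the length model of RSEM, and levels under 50 counts are limited by counting error. No paired analysis was possible because the labels give 1 group.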
